A study of Mus musculus with 3 samples.

Results

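Cholesterol is the substrate of every steroid hormone, and the Leydig cell of the testis, which makes testosterone, obtains it by making it from acetyl-CoA, by taking it up from lipoproteins and by freeing it from stored esters. The genes described here are 32 mouse genes of cholesterol synthesis, uptake and transport, listed by what their proteins do and not by a threshold on their values, out of 24698 genes in the count table. The choice was made with earlier results of these data known. They fall into 8 genes of the thiolase and mevalonate steps, 12 of the squalene and sterol steps, 6 regulators, and 6 genes of uptake, transport and storage. All 32 were in the table and all passed the minimum of 50 UMIs that was set for each comparison, so every member is accounted for below.

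The study asked how interstitial cells of the adult testis turn into Leydig cells in a dish. Sca1+/cKit- cells were sorted from the testes of C57BL/6 males aged 8 to 12 weeks, plated on Matrigel at 100000 cells per well, recovered for 18 h in serum, and expanded for 3 days with the growth factors Fgf2, PdgfAA and PdgfBB (each at 10 ng/ml) and the hedgehog agonist SAG (0.5 uM). The differentiation medium then held the same 4 agents with 5 mM LiCl2 and 10 uM DAPT (an inhibitor of Notch processing). Single cells were read by Drop-seq, a droplet method that counts unique molecular identifiers (UMIs), with 1 library for each of days 4, 7 and 14, which held 2980, 2171 and 973 cells. By the study's account, day 4 cells came from expansion medium, and days 7 and 14 had 3 and 10 days of differentiation medium.

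With 1 library a day, and no statement of how many animals or wells went into each, no difference between days has a replicate check and no p-value is given. A level is the UMIs of a gene summed over the cells of a group per 1000000 UMIs of that group (CPM). The 3 libraries held 12677110, 11627440 and 5324400 UMIs in the order of the days, and brackets or "interval" give 95% exact counting intervals that leave out any variation between cells, wells or libraries. A gene was counted as higher or lower past a ratio of 1.5 in either direction, and the share of all genes past the same ratio stands beside each main count. Counts under most alternative settings are given without that share. CPM values were compared between groups for the same gene and not between genes. Because levels are shares of a group's RNA, more cells with a transcript and more transcript per cell cannot be told apart in a sum.

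On day 14 the cells were also split by their own steroidogenic enzymes. Cells with Cyp11a1 (the side-chain cleavage enzyme that turns cholesterol into pregnenolone) plus Hsd3b1 (3β-hydroxysteroid dehydrogenase) at or above 10 per 10000 UMIs numbered 418 of 973 (43.0%), with a median of 3603 UMIs per cell, against 555 cells below the cut with a median of 3063. The cut is a range and not a cell type, and 149 cells lay between 5 and 20 per 10000. The 9 Leydig markers checked include both genes of the cut, which fix part of any difference in their sum. The other 7 summed to 6282 CPM at or above the cut and 1500 CPM below it. No member was used for the cut.

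Some features of the libraries touch every comparison. In each library 43.8% to 51.8% of the barcodes shared their first 11 of 12 bases with another barcode of that library (504 of 973 on day 14), and merging each such family into 1 cell left 2027, 1414 and 601 cells. No whole barcode was shared between libraries. On day 14 the families lay wholly at or above the cut in 48 cases, wholly below it in 71 and on both sides in 13. The counts of members past the ratio with families merged are given beside the results. Median mitochondrial UMIs were 1.19%, 1.37% and 2.30% on days 4, 7 and 14.

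Synthesis begins in the cytosol and the endoplasmic reticulum with acetyl-CoA units joined into mevalonate, which is activated, decarboxylated and condensed into farnesyl diphosphate. A pair of farnesyl units becomes squalene, which is cyclised to lanosterol and trimmed to cholesterol. The genes of these steps share a control in many tissues: when sterol is low, Scap escorts the precursors of the SREBP factors (genes Srebf1 and Srebf2) from the endoplasmic reticulum to the Golgi, where Mbtps1 makes the first cut that frees them, while Insig1 and Insig2 hold Scap back when sterol is high.

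Between day 4 and day 7 the members differed little in level. The medium also changed between these days, so time and medium cannot be told apart. None was 1.5-fold higher, beside 12.1% of the 11371 genes tested, and 1 was 1.5-fold lower, beside 7.11%. That gene was Pmvk (phosphomevalonate kinase), at 117 and then 74.6 CPM, a ratio of 0.640 [0.588 to 0.696]. With barcode families merged the counts were again 0 and 1. The median log2 ratio of the members was 0.08, against 0.10 over all genes. The 20 synthesis genes summed to 2814 CPM at first and to 2715 CPM at the later day. The largest ratio was that of Npc2, a soluble carrier of cholesterol in the lysosome, which went from 1128 to 1676 CPM (1.49, interval 1.45 to 1.52), just inside the limit.

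By day 14, 28 of the 32 members were at their highest of the 3 days, a count given without the share of all genes. Against day 7, 16 members were at least 1.5-fold higher and none was 1.5-fold lower, while over the 11007 genes tested 17.6% were higher and 28.6% lower. The median log2 ratio was 0.59 for the members and -0.17 for all genes. The 20 synthesis genes together went from 2715 to 4548 CPM, a ratio of 1.68 [1.65 to 1.70]. The shift of all genes matters here: with the ratio centred on its median over genes with at least 200 UMIs, which moves every log2 ratio up by 0.21, 22 members were higher and none lower, beside 23.4% and 21.1% of all genes. Merging barcode families left the counts at 16 and 0.

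**Figure D1:**
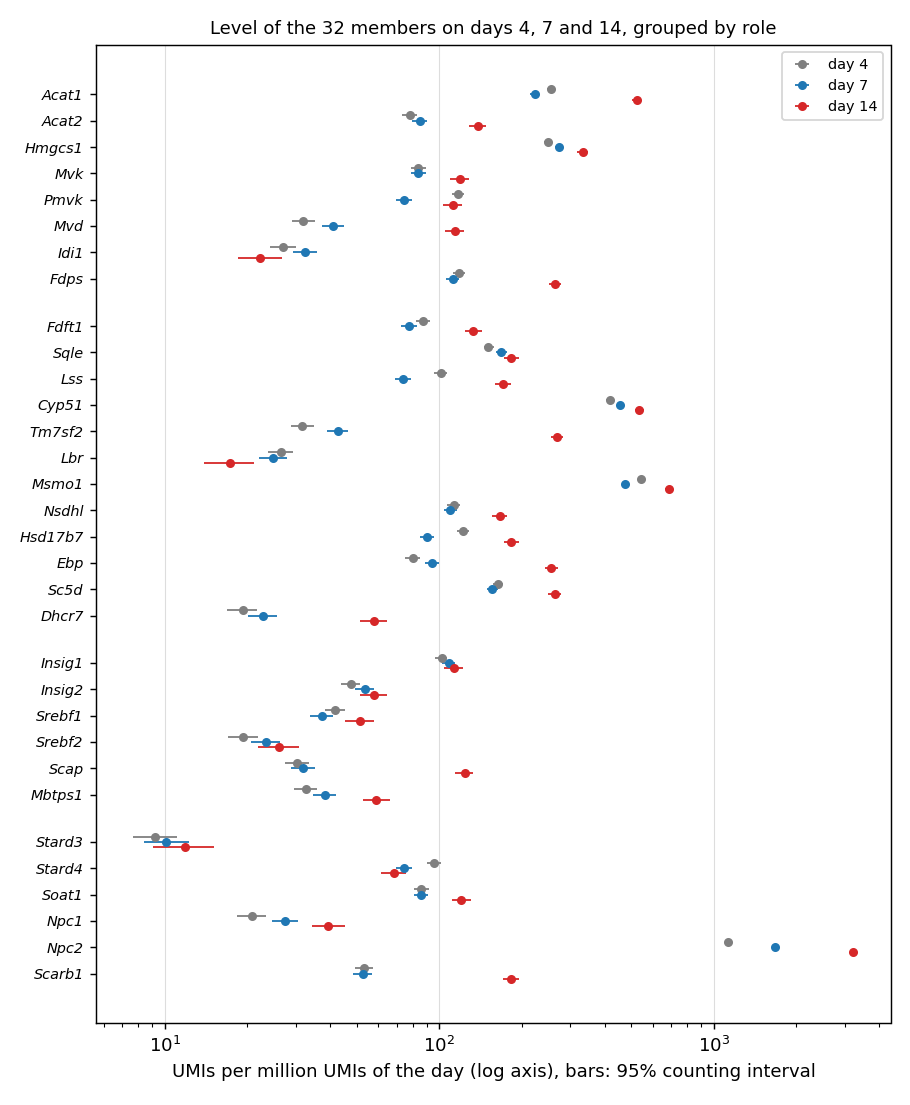
Level of each of the 32 members in CPM (horizontal log axis) on days 4, 7 and 14, 1 point per library, grouped from top to bottom as mevalonate steps, sterol steps, regulators and transport, with bars for 95% counting intervals. Days 4 and 7 lie close together for most genes, while Tm7sf2 (42.7 to 269 CPM), Scap (31.9 to 124 CPM) and Scarb1 (52.5 to 183 CPM) stand well to the right on day 14, and Idi1, Lbr and Stard4 have their lowest point on that day.

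In the mevalonate steps, 4 of 8 genes were past the ratio on day 14. Mvd, the decarboxylase that makes isopentenyl diphosphate, measured 32, 40.9 and 114 CPM on days 4, 7 and 14, 2.78-fold [2.46 to 3.14] above day 7. Fdps, the farnesyl diphosphate synthase, measured 118, 112 and 264 CPM, 2.36-fold above day 7. The thiolases that join 2 acetyl-CoA units, Acat1 in mitochondria and Acat2 in the cytosol, were 2.35-fold and 1.62-fold higher, at 524 and 138 CPM on day 14 against 223 and 85.1 CPM on day 7. Hmgcs1, the cytosolic HMG-CoA synthase, was 1.22-fold higher and the mevalonate kinase gene Mvk 1.41-fold. Pmvk, at 112 CPM on day 14, came back to near its day 4 level and lay just under the limit against day 7. Idi1, the isopentenyl diphosphate isomerase, went the other way, from 32.4 to 22.3 CPM, a ratio of 0.689 that fell just short of the limit.

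In the squalene and sterol steps, 8 of 12 genes were past the ratio. Tm7sf2, one of 2 sterol C14 reductases among the members, differed most of all 32 genes, with 31.7, 42.7 and 269 CPM on days 4, 7 and 14, 6.30-fold [5.69 to 7.00] above day 7. Lbr, the other C14 reductase and also a protein of the nuclear lamina, measured 26.4, 24.8 and 17.3 CPM, a ratio of 0.698. One reductase gene was thus above its day 7 level and the other below it. Without the cells that held 2 or more UMIs of the mitosis genes, the log2 ratio of Lbr was -0.08, against -0.52 in all cells. Ebp, the sterol isomerase, was 2.72-fold higher at 256 CPM, and Dhcr7, which makes the last double-bond reduction of one branch, 2.54-fold at 57.8 CPM. Lss, the cyclase that makes lanosterol, measured 101, 73.9 and 171 CPM, and was 2.31-fold higher on day 14. Hsd17b7 (a sterol ketone reductase, 2.03-fold), Fdft1 (squalene synthase, 1.72-fold), Sc5d (a sterol desaturase, 1.68-fold) and Nsdhl (a C4 decarboxylase, 1.52-fold) made up the rest. Cyp51, the lanosterol demethylase, and Sqle, the squalene epoxidase, differed little, at 457 and 535 CPM (1.17-fold) and at 168 and 183 CPM (1.09-fold), and Msmo1, the C4 methyl oxidase, was 1.45-fold higher.

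Of the regulators, Scap and Mbtps1 were past the ratio. Scap went from 30.4 and 31.9 CPM on days 4 and 7 to 124 CPM on day 14, 3.87-fold [3.41 to 4.41], and Mbtps1 from 38.3 to 59.0 CPM, 1.54-fold. The factor genes themselves differed less, Srebf1 at 37.3 and 51.5 CPM (1.38-fold) and Srebf2 at 23.3 and 26.1 CPM (1.12-fold, interval 0.906 to 1.38). Insig1 (1.04-fold) and Insig2 (1.08-fold) had intervals that held 1.

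Of the uptake and transport genes, Scarb1 and Npc2 were past the ratio. Scarb1, which encodes the SR-BI receptor that takes cholesterol esters from high-density lipoprotein, measured 53.3, 52.5 and 183 CPM on days 4, 7 and 14, 3.48-fold [3.14 to 3.85] above day 7. Npc2 measured 1128, 1676 and 3204 CPM, 1.91-fold above day 7, and was higher on each later day. Soat1, which esterifies cholesterol for storage, was 1.40-fold higher and Npc1, the lysosomal membrane partner of Npc2, 1.44-fold. Stard4, a cytosolic sterol carrier, measured 95.5, 74.2 and 68.4 CPM, a day 14 ratio of 0.921 that turned above 1 when the ratios were centred on all genes. Stard3, a carrier of late endosomes, had few UMIs, 63 on day 14, and a ratio of 1.17 [0.845 to 1.60].

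Other genes moved between these libraries too. All 15 mitosis genes checked were lower on day 14 than on day 7, with ratios from 0.104 to 0.352, and the 8 myofibroblast markers summed to 269 CPM, against 5397 CPM a week before. Their part in the members' levels was not tested. Leaving out the cells with 2 or more UMIs of the mitosis genes left 15 members higher on day 14, given without the share of all genes in those cells. Of 27 further genes of cholesterol handling with enough UMIs, 9 were higher and 4 lower on day 14, beside 17.6% and 28.6% of all genes. Those past 2-fold included Gramd1b, a carrier of plasma membrane cholesterol (313 against 16.9 CPM, 18.6-fold), Cd36, a scavenger receptor (17.1 against 0.602 CPM, 28.4-fold, from 7 UMIs on day 7), Stard5, a further sterol carrier (2.20-fold), and Lrp8, a lipoprotein receptor (0.299).

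Within the day 14 library, cells at or above the enzyme cut held more of nearly every synthesis transcript. Of the 32 members, 23 were at least 1.5-fold higher in the cells at or above the cut and none was lower, beside 7.74% higher and 11.9% lower of the 8122 genes tested. The median log2 ratio was 1.05, against -0.05 over all genes. The 20 synthesis genes held 6259 CPM at or above the cut and 2874 CPM below it, a ratio of 2.18 [2.12 to 2.24], and 19 of them were past the ratio. Many of the members also belong to the marker list that the study drew for its Leydig cluster from these same libraries, so their higher level is not independent evidence. With barcode families merged, 23 members were again higher and none lower.

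All 8 mevalonate genes were past the ratio, from Acat1 (636 against 414 CPM, 1.54-fold) and Idi1 (27.3 against 17.5 CPM, 1.57-fold, interval 1.07 to 2.31) to Acat2 (198 against 78.8 CPM, 2.51-fold). Fdps, Mvd, Mvk and Pmvk lay close together at 2.34-fold, 2.34-fold, 2.35-fold and 2.30-fold, and Hmgcs1 was at 436 against 233 CPM (1.87-fold). Of the 12 sterol genes, 11 were past it. Tm7sf2 again stood first, at 416 against 126 CPM (3.31-fold, interval 2.93 to 3.75), followed by Hsd17b7 at 269 against 99.2 CPM (2.71-fold) and Dhcr7 at 84.3 against 32 CPM (2.64-fold). Cyp51, at 1.17-fold between the days, was 2.40-fold higher in the cells at or above the cut, at 760 against 316 CPM, and Sqle 1.95-fold, at 243 against 125 CPM. Lbr was the exception, at 19.8 against 14.9 CPM (1.33, interval 0.863 to 2.06).

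The regulators and carriers did not move as a block. Scap was 2.15-fold higher, at 169 against 78.8 CPM. Srebf2 was 1.56-fold higher on 84 against 55 UMIs, a ratio that turned below 1 after each cell was thinned to 1500 UMIs. Insig1 and Insig2 were at 1.34-fold and 1.35-fold, while Mbtps1 (58.9 against 59.1 CPM) and Srebf1 (0.845, interval 0.661 to 1.08) had intervals that held 1. Scarb1 (246 against 121 CPM, 2.03-fold) and Stard4 (94.2 against 43.1 CPM, 2.19-fold) were past the ratio. The lysosomal pair was not: Npc1 was at 41.0 against 37.9 CPM and Npc2 at 3122 against 3284 CPM (0.951, interval 0.923 to 0.980), so that Npc2, which was 1.91-fold above day 7 on day 14, was no higher at or above the cut than below it. Macrophage markers were summed at 433 CPM below the cut, of which 1 gene held 388 CPM, and at 11 CPM above it. Myofibroblast markers were summed at 63.8 CPM at or above the cut and 470 CPM below it, and the mitosis genes at 136 and 255 CPM, with 8 of the 11 that had enough UMIs lower at or above the cut. Their part in the members' ratios was not tested. Without the 6 day 14 cells that held 2 or more macrophage UMIs, 23 members were higher and none lower, given without the share of all genes.

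Cells, too, could be compared one by one. The 20 synthesis genes took a median of 56.6 of every 10000 UMIs in the cells at or above the cut (quartiles 40.3 and 76.2) and 22.5 in those below it (11.8 and 36.6), against 24.4 in the day 7 cells below the cut. Of the cells at or above the cut, 330 of 418 (78.9%) exceeded the upper quartile of those below it, and the ranges of both groups reached from 0 to 140. Thinned to 1500 UMIs, a cell held a UMI of 8.64 members on average at or above the cut and of 5.17 members below it, 59 and 120 shallower cells being left out. Tm7sf2 was detected in 43.5% of the thinned cells at or above the cut and 14.9% of those below it (68.9% and 28.6% before thinning), whereas Npc2 was detected in 99.4% and 98.4%.

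**Figure D2:**
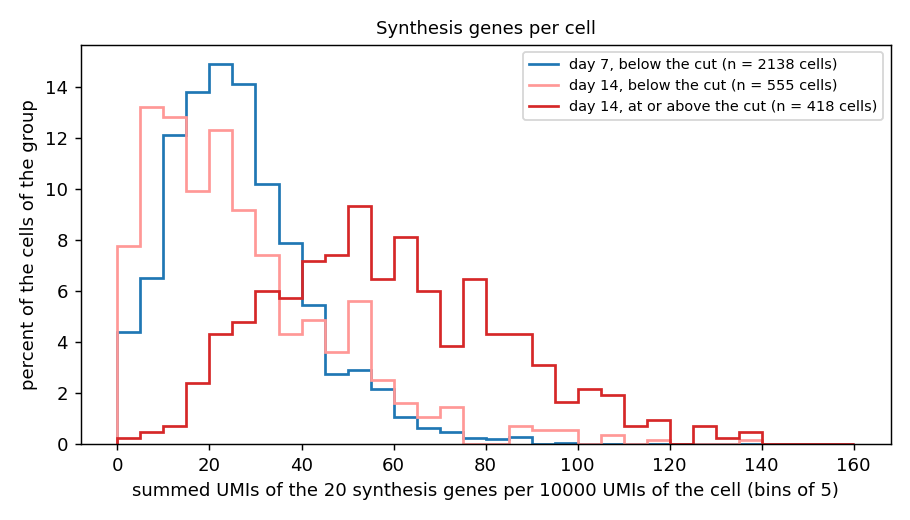
Distribution of the summed UMIs of the 20 synthesis genes per 10000 UMIs of the cell (horizontal axis, bins of 5), as a percentage of the cells of each group (vertical axis), for 2138 day 7 cells and 555 day 14 cells below the enzyme cut and 418 day 14 cells at or above it. The groups below the cut overlap, with medians of 24.4 and 22.5, and the third group is shifted to a median of 56.6 with a long shared range.

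Levels of many members also rose with the amount of the enzyme transcripts. The day 14 cells were divided into 324 with no UMI of Cyp11a1 or Hsd3b1, 231 above 0 and under 10 per 10000, 179 from 10 to under 50, and 239 at 50 or more. The 32 members summed to 6275, 7187, 9572 and 11019 CPM in this order, and 23 members were higher at every step, while none was lower at every step. These counts are given without the share of all genes that rose or fell in the same way. Tm7sf2 measured 86.2, 150, 341 and 470 CPM. Scarb1 measured 106, 131, 177 and 296 CPM and Stard4 30.0, 51.2, 82.4 and 103 CPM. Cyp51 and Scap reached most of their difference by the third bin, Cyp51 with 263, 350, 731 and 780 CPM and Scap with 61.0, 89.8, 170 and 169 CPM. Npc2 stayed between 3080 and 3310 CPM in all 4 bins. The bins differ in depth, with medians of 2025, 5177, 3700 and 3426 UMIs per cell, and a cell with few UMIs is more likely to show no enzyme transcript.

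**Figure D3:**
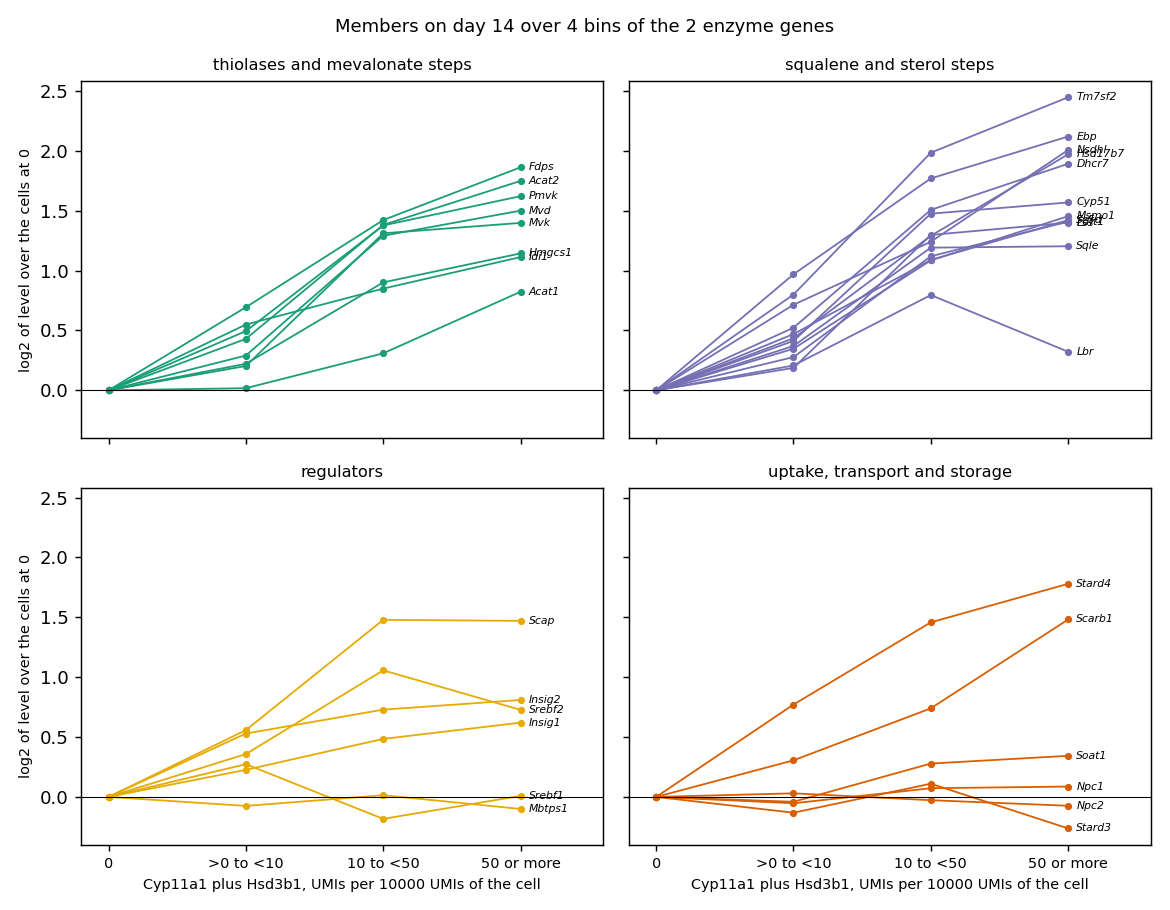
Level of each member in 4 bins of day 14 cells by Cyp11a1 plus Hsd3b1 per 10000 UMIs (horizontal axis), as log2 of its CPM over its CPM in the cells at 0 (vertical axis), 1 line per gene and 1 panel per role, without error bars. Tm7sf2 ends highest (86.2 to 470 CPM) and every synthesis gene but Lbr is higher at each step, while in the lower panels Stard4 and Scarb1 end well above 0 and Npc2 stays flat between 3080 and 3310 CPM.

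The day 7 library offered the same split in cells that the day 14 values did not use. It held 33 cells at or above the cut (15 with barcode families merged, with the same counts of 25 and 1 below), with 136860 UMIs and a median of 2267 per cell against 3315.5 in the 2138 cells below it, and the 7 Leydig markers not used for the cut summed to 3003 CPM against 365 CPM. In these cells 25 members were at least 1.5-fold higher and 1 was lower. The background is high in so small a group, 21.8% higher and 34.4% lower of the 10129 genes tested. By the stricter measure of a counting interval wholly above 1, 24 members and 8.52% of all genes were higher, and 7.17% of all genes had an interval wholly below 1, among them Npc2 alone of the members. The 20 synthesis genes held 7884 CPM against 2653 CPM, a ratio of 2.97 [2.79 to 3.16], and 19 of them were past the ratio, all but Lbr.

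Each of the 23 members that were 1.5-fold higher at or above the cut on day 14 was also past 1.5-fold on day 7, and 22 of them had an interval above 1 there. The other was Srebf2, with 7 UMIs in the 33 cells, an interval of 0.886 to 4.65 and no UMI in the 27 cells left after thinning. The matching overlap is not given for the 629 genes that were higher in the day 14 split. Both splits use the same 2 enzyme genes. Lss measured 387 against 70.1 CPM (5.52-fold, interval 4.10 to 7.29), Hmgcs1 1198 against 262 CPM (4.58-fold) and Mvd 175 against 39.3 CPM (4.46-fold). Scap was at 146 against 30.5 CPM (4.78-fold, 20 UMIs) and Stard4 at 256 against 72.1 CPM (3.55-fold). Scarb1 differed most, at 643 against 45.5 CPM (14.1-fold, interval 11.1 to 17.7), and had a UMI in 60.6% of the 33 cells. Insig1 (2.76-fold) and Soat1 (2.16-fold) were past the ratio here and not on day 14. Npc2 was at 1337 against 1680 CPM (0.796, interval 0.684 to 0.920). Npc1, the member counted as lower, had 1 UMI in the 33 cells and an interval of 0.00666 to 1.48. Myofibroblast markers summed to 365 CPM in the cells at or above the cut and 5457 CPM below it, and their part in the ratios was not tested. On day 4 only 8 cells reached the cut, and their synthesis genes took a median of 88.5 of every 10000 UMIs against 25 in the other cells. The 7 Leydig markers not used for the cut summed to 3114 CPM in these 8 cells against 198 CPM in the other day 4 cells. Of the 7, 4 had a UMI in the 8 cells and Cyp17a1, Hsd17b3 and Lhcgr had none. Scarb1 was at 33.0 CPM (2 UMIs) in the 8 cells against 53.4 CPM. The 4 adrenal cortex markers checked summed to 560 CPM in them, all from 1 gene, against 0.0793 CPM in the other day 4 cells. On day 7 they summed to 51.1 CPM at or above the cut and 0.783 CPM below it.

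**Figure D4:**
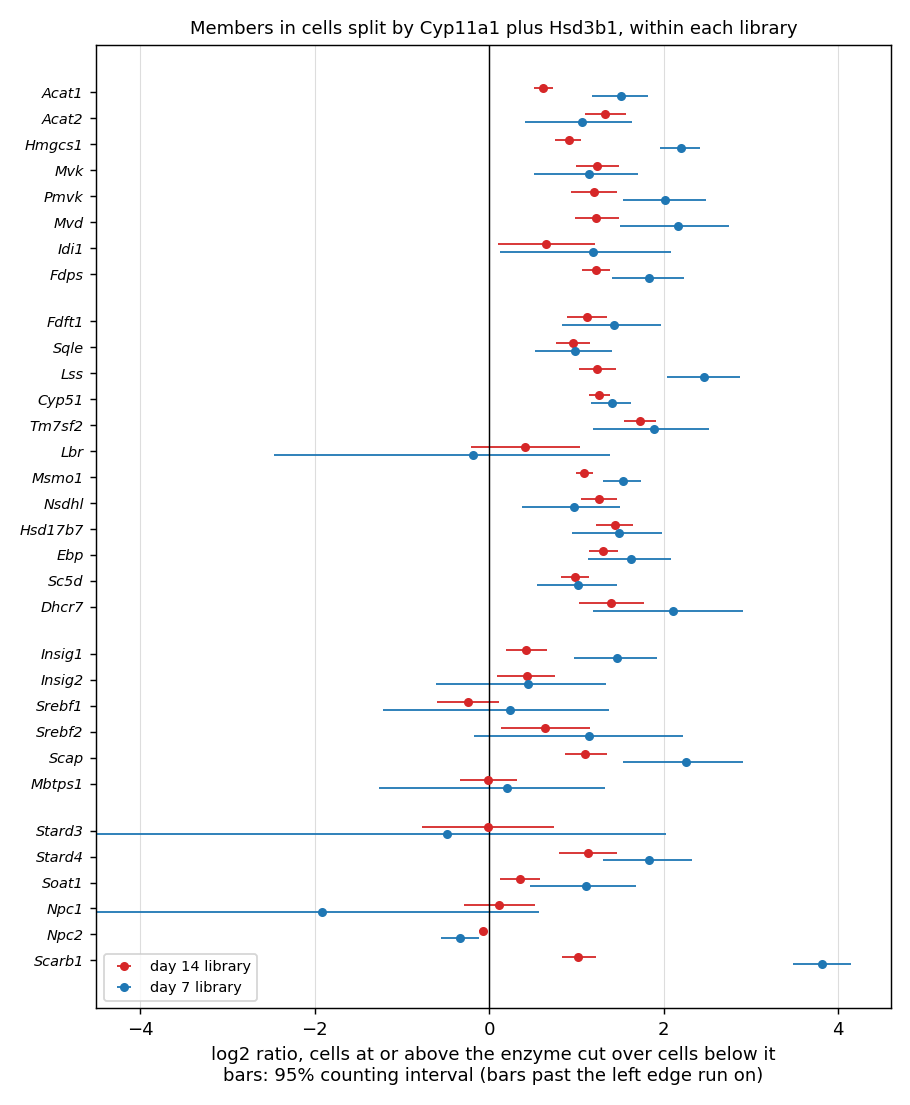
Log2 ratio of each member between cells at or above the enzyme cut and cells below it (horizontal axis), within the day 14 library (418 and 555 cells) and within the day 7 library (33 and 2138 cells), with 95% counting intervals and genes ordered by role. Nearly all synthesis genes lie to the right of 0 in both libraries, Lbr, Srebf1, Mbtps1, Stard3, Npc1 and Npc2 do not, and Scarb1 on day 7 lies farthest to the right.

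Promoters were read for the members because so many of them were higher in the same cells. RefSeq windows (build GRCm38.p6) were at hand for 25 of the 32 genes, and the 250 bases before the start were searched on both strands for the sterol regulatory element TCACNCCAC, the CCAAT box, the GC box GGGCGG and the SF-1 site CAAGGNCA, letters known from sites of SREBP, NF-Y, Sp1 and the steroidogenic factor Nr5a1. CCAAT was present in 22 of 25 members (88.0%) and in 15 of the 16 synthesis genes with a window, against 40.2% of 6202 genes with at least 50 UMIs on day 14 and 37.5% of all 27025 genes with a window. GGGCGG was present in 23 of 25 members (92.0%), against 67.2% of those 6202 genes. Members not past the ratio in the day 14 split carried both motifs too. CCAAT was in Lbr, Insig1, Insig2, Srebf1, Stard3, Soat1 and Npc2, and GGGCGG in the same genes but Soat1 and also in Mbtps1. Of the members past the ratio there, Acat2 and Scap held no CCAAT and Pmvk no GGGCGG. The exact sterol regulatory element was found in Hmgcs1 and Stard3 (8.00% of members, 1.24% of the 6202 genes) and the SF-1 site in Dhcr7 (4.00%, against 5.37%). Some genes have several windows and any of them counted. Those with a match for the first element differed in the day 14 split, Hmgcs1 at 1.87-fold and Stard3 at 0.990. A match is a run of letters and not a measured binding site.

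Of the windows that lie wholly before the annotated gene, 5 are printed below from 5′ to 3′ on the gene's strand, to show how CCAAT and GC boxes lie in genes from the mevalonate and sterol steps beside the carrier Stard3. Capitals mark the 4 motifs on either strand, so ATTGG is CCAAT and CCGCCC is GGGCGG on the other strand. They are Hmgcs1 at chr13:119690101-119690350 on the plus strand, Mvk at chr5:114444019-114444268 on the plus strand, Mvd at chr8:122443423-122443672 on the minus strand, Ebp at chrX:8193513-8193762 on the minus strand and Stard3 at chr11:98358118-98358367 on the plus strand.
Hmgcs1: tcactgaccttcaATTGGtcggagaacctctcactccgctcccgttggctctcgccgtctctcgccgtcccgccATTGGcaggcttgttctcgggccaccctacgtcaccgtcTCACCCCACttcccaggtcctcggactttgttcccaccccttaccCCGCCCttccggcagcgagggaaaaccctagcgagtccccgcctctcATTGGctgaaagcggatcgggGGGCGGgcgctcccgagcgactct
Mvk: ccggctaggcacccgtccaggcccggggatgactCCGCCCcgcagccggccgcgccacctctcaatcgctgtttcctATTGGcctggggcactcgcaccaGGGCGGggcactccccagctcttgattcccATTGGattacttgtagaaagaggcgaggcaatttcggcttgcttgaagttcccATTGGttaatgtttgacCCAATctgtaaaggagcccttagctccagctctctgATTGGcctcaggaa
Mvd: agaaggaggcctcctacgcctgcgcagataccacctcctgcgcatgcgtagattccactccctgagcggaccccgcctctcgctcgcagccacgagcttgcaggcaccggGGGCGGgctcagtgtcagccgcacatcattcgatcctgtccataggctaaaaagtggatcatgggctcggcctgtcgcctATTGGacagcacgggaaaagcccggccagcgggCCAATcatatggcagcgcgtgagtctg
Ebp: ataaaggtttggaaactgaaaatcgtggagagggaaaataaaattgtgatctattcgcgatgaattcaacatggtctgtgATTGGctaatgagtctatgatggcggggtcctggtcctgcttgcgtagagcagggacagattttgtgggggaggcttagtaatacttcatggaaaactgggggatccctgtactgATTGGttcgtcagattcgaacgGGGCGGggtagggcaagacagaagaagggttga
Stard3: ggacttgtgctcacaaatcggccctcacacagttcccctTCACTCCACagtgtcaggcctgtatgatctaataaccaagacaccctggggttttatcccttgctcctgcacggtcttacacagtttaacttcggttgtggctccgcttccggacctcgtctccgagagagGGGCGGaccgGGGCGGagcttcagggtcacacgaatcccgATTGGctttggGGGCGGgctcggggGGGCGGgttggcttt

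Cells below the cut were then compared between the days, which leaves out the cells past it but not every cell with enzyme transcripts. On day 14, 231 of the 555 cells below the cut held a UMI of Cyp11a1 or Hsd3b1, with 61.7% of the group's UMIs, and on day 7 19 of 2138, with 1.55%. The 7 Leydig markers not used for the cut summed to 1500 CPM in the day 14 cells and 365 CPM in the day 7 cells, the myofibroblast markers to 470 and 5457 CPM and the mitosis genes to 255 and 1083 CPM. The part of these markers in the ratios was not tested. Day 14 cells below the cut differed from day 7 cells below it in 11 members, 8 higher and 3 lower, beside 15.6% higher and 27.3% lower of the 10611 genes tested. The 20 synthesis genes summed to 2874 CPM against 2653 CPM, a ratio of 1.08 [1.06 to 1.11], with 10 of them above 1 and 10 not. Acat1, the mitochondrial thiolase, is 1 of the 20 and alone measured 414 against 218 CPM. The ratio of the sum without it is not given. This comparison uses the same day 14 cells below the cut as the split within the library, so the 2 sets of ratios are not independent.

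The higher genes came from every role. Tm7sf2 was at 126 against 41.3 CPM (3.04-fold, interval 2.63 to 3.50), Scarb1 at 121 against 45.5 CPM (2.66-fold), Scap at 78.8 against 30.5 CPM (2.58-fold) and Npc2 at 3284 against 1680 CPM (1.95-fold). Acat1 (1.90-fold), Mvd (1.74-fold), Ebp (1.61-fold) and Mbtps1 (1.55-fold) completed them. The lower genes were Idi1 at 17.5 against 31.9 CPM (0.547, interval 0.395 to 0.742), Stard4 at 43.1 against 72.1 CPM (0.598) and Lbr at 14.9 against 24.8 CPM (0.599). Lbr was no longer past the ratio without mitotic cells, with a log2 ratio of -0.28 against -0.74 otherwise. Cyp51 (0.705) and Sqle (0.750), at 316 and 125 CPM against 449 and 166 CPM, were below 1 without reaching the limit. Of these, all but Lbr had also been past the ratio, and higher, on the upper side of the cut within the day 14 library. With barcode families merged, 9 members were higher and 3 lower. Centred on all genes, a shift of 0.20, 13 members were higher and 1 (Idi1) was lower, beside 21.8% and 20.1% of all genes, and 8 members whose ratio was just under 1 turned above it: Acat2, Hmgcs1, Pmvk, Msmo1, Nsdhl, Insig1, Insig2 and Srebf2.

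Among cells with no UMI of either enzyme, 324 on day 14 and 2119 on day 7, 7 members were higher and 6 lower, beside 16.3% higher and 28.4% lower of the 10285 genes tested. In these cells the 20 synthesis genes summed to 2424 CPM against 2645 CPM, a ratio of 0.916 [0.879 to 0.955], which turned to 1.06 when centred on all genes, a shift that moves every log2 ratio here up by 0.21. Both ratios include the mitochondrial thiolase Acat1, which measured 411 against 216 CPM. Of the 8 higher genes, Ebp was no longer past the ratio, at 93.0 against 91.6 CPM (1.02, interval 0.815 to 1.25). Tm7sf2 was at 86.2 against 41.0 CPM (2.10-fold), Scarb1 at 106 against 43.8 CPM (2.41-fold), Scap at 61.0 against 30.1 CPM (2.02-fold) and Npc2 at 3242 against 1677 CPM (1.93-fold). Cyp51 (0.585), Sqle (0.638) and Nsdhl (0.652) joined Idi1, Stard4 and Lbr among the lower genes. These cells had a median of 2025 UMIs on day 14 and 3285 on day 7.

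Further genes of cholesterol handling were counted in the day 14 split from a list beside the members. Of 25 with enough UMIs, 5 were higher and 2 lower (beside 7.74% and 11.9% of all genes) at or above the cut. Those past 2-fold included Cd36 (29.6 against 4.83 CPM, 6.13-fold), Gramd1b (509 against 121 CPM, 4.19-fold) and Mylip, a ligase that degrades the LDL receptor (8.74 against 20.1 CPM, 0.435). The median log2 ratio of the 25 was -0.06, near that of all genes, and Tspo, an outer mitochondrial protein, measured 273 CPM on both sides of the cut. In the day 7 split 10 of 26 were higher and 6 lower (38.5% and 23.1%, beside 21.8% and 34.4% of all genes). Gramd1b was at 234 against 14.3 CPM there (16.4-fold, interval 10.8 to 24.0). Between the days in cells below the cut, 4 of 26 were higher and 3 lower (15.4% and 11.5%). The share higher was near the 15.6% of all genes, of which 27.3% were lower. Those past 2-fold were Gramd1b (8.51-fold), Mylip (2.13-fold) and Lrp8 (0.182).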

How the data were processed

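The authors made the deposited counts, raw UMI counts per gene and cell barcode, by Drop-seq with alignment to GRCm38. Tools named in the submitters' processing notes are Picard 2.6.0, SAMtools 1.2 and STAR 2.5.2a. The merged table held 6124 cells of the 3 days that passed the study's limits of 500 genes and 10% mitochondrial UMIs, and 495 columns of no sample used here entered no step. Entries differed from the tables per day in 0 cases. Members and lists were chosen with earlier results of these data known, and the day 7 split by the enzyme cut was added after the data were seen.

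Counts were summed per group and divided by the group's total. Levels carry exact Poisson intervals at 95%, ratios exact conditional binomial ones and shares of cells exact Clopper-Pearson ones, all for counting error only. No test was run, since each day has 1 library. All 32 members are named, with full values for those past 1.5-fold or at either end of their role group, and genes of the further list past 2-fold. Some genes of that list are not reported here. Tspo falls outside the rule and was picked with its values in view. Scrublet marked 0, 2 and 1 cells of days 4, 7 and 14 as doublets and so had not worked. The top 6% of scores per day were left out as an alternative instead. Thinning drew 1500 UMIs per cell with seed 1. The scripts were tested on simulated data. Python 3.11.15 with numpy 2.4.6, scipy 1.17.1, scanpy 1.11.5 and matplotlib 3.10.9 was used. Promoter windows came from RefSeq and gene positions from GENCODE M21, both on GRCm38.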

Additional observations from a re-analysis of the deposited data

How the results depend on the processing

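Counting intervals leave out variation between cells and libraries, and 1 library a day limits every comparison between days. No paired analysis was possible because each day has 1 library and no result comes from a test. The number of members higher in the day 14 split stayed within 1.5 times of 23 under every alternative run. On day 14 against day 7, 1 member was lower without the top 6% of Scrublet scores, with each cell weighing the same, and after thinning to 1500 UMIs, and 10 members were higher at 2-fold in place of 1.5-fold. On day 7 against day 4, 1 member was higher without mitotic cells, with each cell weighing the same and when thinned, and 0 were lower with each cell weighing the same, at 2-fold and without the deepest 5% of cells. For cells below the cut, day 14 against day 7, median ratio scaling gave 13 higher and 1 lower the 2-fold limit 3 higher and 0 lower, and the cells with no enzyme UMI 6 lower. In the day 7 split, the number lower was 2 without mitotic cells, with a cut of 5 per 10000, or with a cut on Cyp11a1 or Hsd3b1 alone, and 4 with each cell weighing the same, when thinned, or with a cut of 20 per 10000. The log2 ratio of Srebf2 in the day 14 split was -0.26 when thinned (0.64 otherwise), and that of Idi1 in the day 7 split was -0.17 with the cut on Hsd3b1 alone (1.19 otherwise). The cause of these differences was not tested. The merging of barcode families, the removal of cells with macrophage markers, that of the deepest cells and the limit to cells with no enzyme UMI were chosen after seeing the data.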
